A study of Mus musculus with 31 samples.

Results

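Collagens and the matrix genes usually made by stromal cells were followed through 31 bulk RNA-seq libraries of CD45.2+ cells sorted from mouse mammary tumours. The members were all gene symbols made of Col, a number, a and a number, together with Sparc, Postn, Fn1, Mgp, Lum, Dcn, Bgn, Smoc1, Fbn1, Thbs1, Thbs2, Lox, Pdgfra and Pdgfrb. The rule found 58 of the 38406 symbols counted, of which 44 were collagens and 14 were the listed genes. Of these, 50 had at least 10 counts over the 31 libraries. The other 8 were collagens with fewer: Col4a3, Col4a4, Col6a4, Col6a5, Col6a6, Col10a1, Col24a1 and Col28a1, with Col6a4 at 0 in every library.

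All animals were wild-type female C57BL/6 mice carrying AT3-OVA, a triple negative mammary tumour line, placed orthotopically in the mammary fat pad. Only the tumour area was irradiated, with an electron beam through openings in a lead shield, as 3 fractions of 4 Gy given 1 day apart (3x4Gy) or as 1 fraction of 20 Gy (1x20Gy). Mock groups were anaesthetized on the same schedule without radiation (3x0Gy, 1x0Gy). The study compared how the 2 dose schedules altered the immune cells of the tumour. At day 5 after the last fraction there were 4 libraries of 3x0Gy, 6 of 3x4Gy, 4 of 1x0Gy and 6 of 1x20Gy, and at day 13 there were 4 of 1x0Gy and 7 of 1x20Gy. The labels number the libraries within a group but do not say that each came from its own animal, so p-values measure the spread between these libraries. The libraries of the 2 days carry different experiment codes, which cannot be told apart from the day itself, and levels were compared within a day only.

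Each library held 2641229 to 7541144 counts in genes. Reads outside annotated genes made up 5.65% to 32% of the sum of gene counts, those reads and ambiguous reads, with the lowest share in 3x0Gy library 2. Between replicates of a group the chi-square per degree of freedom was 3.42 to 62.7, so no replicates agreed within counting error. Levels are in CPM, each library's counts scaled to a common total with TMM factors within a day. The summed level of 12 leukocyte markers was between 2387 and 6465 CPM.

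Collagens are triple-helical chains that assemble outside the cell. The fibrillar types I, III, V and XI form the tensile fibres, types IX, XIV and XVI attach to the surface of fibrils, and type IV forms the sheet of basement membranes. Glycoproteins such as Sparc, Postn and Fn1 and small proteoglycans such as Dcn, Bgn and Lum bind these fibres and control their assembly, and Lox crosslinks them. Fibroblasts are the main source in most solid tissues, epithelial and endothelial cells add basement membrane, and leukocytes express few of these genes, with Fn1 and Thbs1 among the exceptions in macrophages.

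The sort was for leukocytes, so the defining markers of other cells were read first. The summed level of 18 fibroblast and mural cell markers was between 46.4 and 123 CPM in every library, most of it from Thy1, which T cells also express and whose group means were 44.9 to 73.6 CPM. Tcf21, Islr, Lrrc15, Cthrc1, Des, Dpep1 and Tagln, markers of fibroblasts or contractile cells, had group means of at most 0.414 CPM. Others of the list were higher, with group means reaching 9.33 CPM for Mcam, 4.59 for Rgs5, 4.18 for Notch3, 3.04 for Acta2, 2.90 for Pi16, 2.24 for Twist1 and at most 1.47 for Fap, Dpt, Prrx1 and Cspg4. These levels are in the range of many members. Pdgfra and Pdgfrb, which define fibroblasts and pericytes and are members themselves, reached group means of at most 0.543 and 0.98 CPM. The summed level of 8 adipocyte markers was between 0.618 and 6.11 CPM, with Lep at 0 in every library. The word stromal thus says where these genes are usually made. In these libraries fibroblast and mural markers other than Thy1 were low but, for several, not absent.

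Epithelial and tumour cell markers were far more abundant, and they moved with irradiation. The summed level of 15 such genes (keratins, claudins, Epcam, Cdh1, Esrp1, Elf5 and Wfdc18) was at 640, 789 and 1344 CPM (lowest, median, highest) in 3x0Gy and at 190, 373 and 874 CPM in 3x4Gy. In 1x0Gy at day 5 it was at 536, 591 and 799 CPM and in 1x20Gy at 176, 294 and 577 CPM. At day 13 it was at 769, 994 and 1104 CPM in 1x0Gy and at 823, 1125 and 2379 CPM in 1x20Gy, so the irradiated group was not lower there. The part of these cells in the member results below was not tested beyond a fit with the mean log2 CPM of the 15 markers as a covariate. In bulk libraries, fewer cells of a type and less RNA per cell cannot be told apart.

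The summed level of the 44 collagens was lower in every irradiated library than in every matching mock library. In 3x0Gy it was at 136, 199 and 280 CPM (lowest, median, highest) and in 3x4Gy at 33.6, 47.6 and 64.2 CPM. In 1x0Gy at day 5 it was at 98.0, 140 and 246 CPM and in 1x20Gy at 32.7, 59.5 and 84.5 CPM. At day 13 it was at 86.7, 117 and 135 CPM in 1x0Gy and at 51.6, 54.9 and 70.5 CPM in 1x20Gy. The collagen sums did not overlap in any of the 3 comparisons, whereas the epithelial sums overlapped in all 3. These sums do not compare the sizes of the changes, since single genes weigh on them. At day 5 Cdh1 had a mean of 208 CPM in 1x20Gy, where the mean epithelial sum was 314 CPM, and 206 CPM in 1x0Gy. Median log2 fold changes of the epithelial markers tested were -1.30, -2.33 and 0.50 in the 3 comparisons. Those of the collagens tested were -1.76, -1.66 and -0.95.

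**Figure D1:**
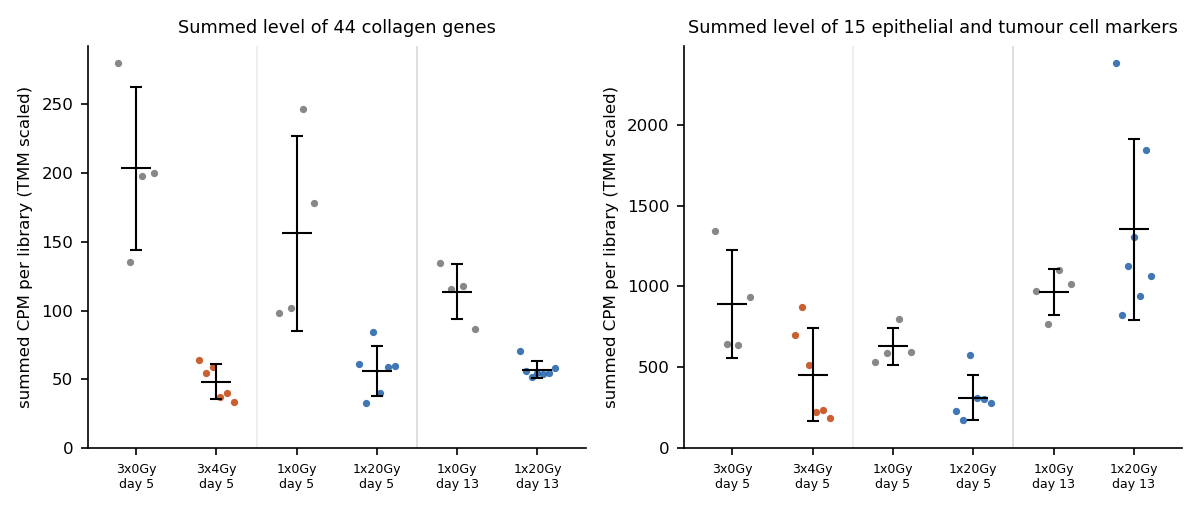
Summed CPM per library (TMM scaled, points) of the 44 collagens (left) and of 15 epithelial and tumour cell markers (right) in the 6 groups, with mean and SD as bars. Collagen sums are at most 64.2 CPM in 3x4Gy against at least 136 CPM in 3x0Gy. For 1x20Gy against 1x0Gy they are at most 84.5 against at least 98.0 CPM at day 5 and 70.5 against 86.7 CPM at day 13. The epithelial sum of 1x20Gy at day 13 reaches 2379 CPM, above its mock group.

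All genes past the count filter were tested with edgeR's quasi-likelihood test, and those with a Benjamini-Hochberg adjusted p under 0.05 are said to have risen or fallen, or to be called. At day 5 after 3x4Gy, 18 of the 32 members tested fell, against 7.09% of all 12021 genes tested, and 1 rose, against 5.20%. The median log2 fold change of the tested members was -1.87, and that of all genes tested was -0.004. At day 5 after 1x20Gy, 14 of 32 fell (4.88% of all genes) and 1 rose (3.67%; 8.55% in either direction), with a median of -1.52. That count was 9 without 1x0Gy library 3 and 5 with the epithelial covariate. At day 13 after 1x20Gy, 13 of the 24 members tested fell (3.83% of all 11071 genes) and 0 rose (4.22%), with a median of -1.14, and 8 fell without 1x0Gy library 1 or 3. At an unadjusted p below 0.05, 1 member (Col8a1) was higher at day 13, which DESeq2 called and limma voom did not. Groups did not overlap for 17, 15 and 10 tested members in these comparisons, against 9.66%, 11.3% and 7.05% of all genes tested.

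Members had to pass a filter on low counts to be tested, and a member that passes through its mock group alone is likely to be one that falls. Of the 50 members with at least 10 counts, tested or not, 42 had a lower mean after 3x4Gy, 42 after 1x20Gy at day 5 and 44 after 1x20Gy at day 13. These counts include the tested members, of which 30 of 32, 30 of 32 and 22 of 24 had negative log2 fold changes. They are thus not free of the filter, and the share of lower means over all genes is not given here. Without 3x0Gy library 2, 18 members fell and 0 rose after 3x4Gy. Over all genes the split into higher and lower calls moved with the scaling, from 625 and 852 with TMM to 325 and 1084 with library size and 450 and 1110 with upper quartile scaling after 3x4Gy. After 1x20Gy it moved from 441 and 587 to 210 and 947 and to 317 and 745 at day 5, and from 467 and 424 to 222 and 1311 with library size at day 13. All member calls but that of Thbs1 after 3x4Gy were kept under both scalings. In all, 21 members fell in at least 1 comparison. A set of 8 fell in all 3: Mgp, Sparc, Postn, Smoc1, Col4a1, Col9a1, Col16a1 and Col25a1. Another 4 (Col5a2, Col6a3, Col7a1, Col9a2) fell in both comparisons at day 5 only, and 4 (Col1a2, Col3a1, Col9a3, Bgn) fell after 3x4Gy and at day 13. Col1a1 and Dcn were called after 3x4Gy only, Col4a2 and Col11a1 after 1x20Gy at day 5 only, and Col15a1 at day 13 only. These patterns of calls are counts past a threshold and do not show that the responses differed.

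**Figure D2:**
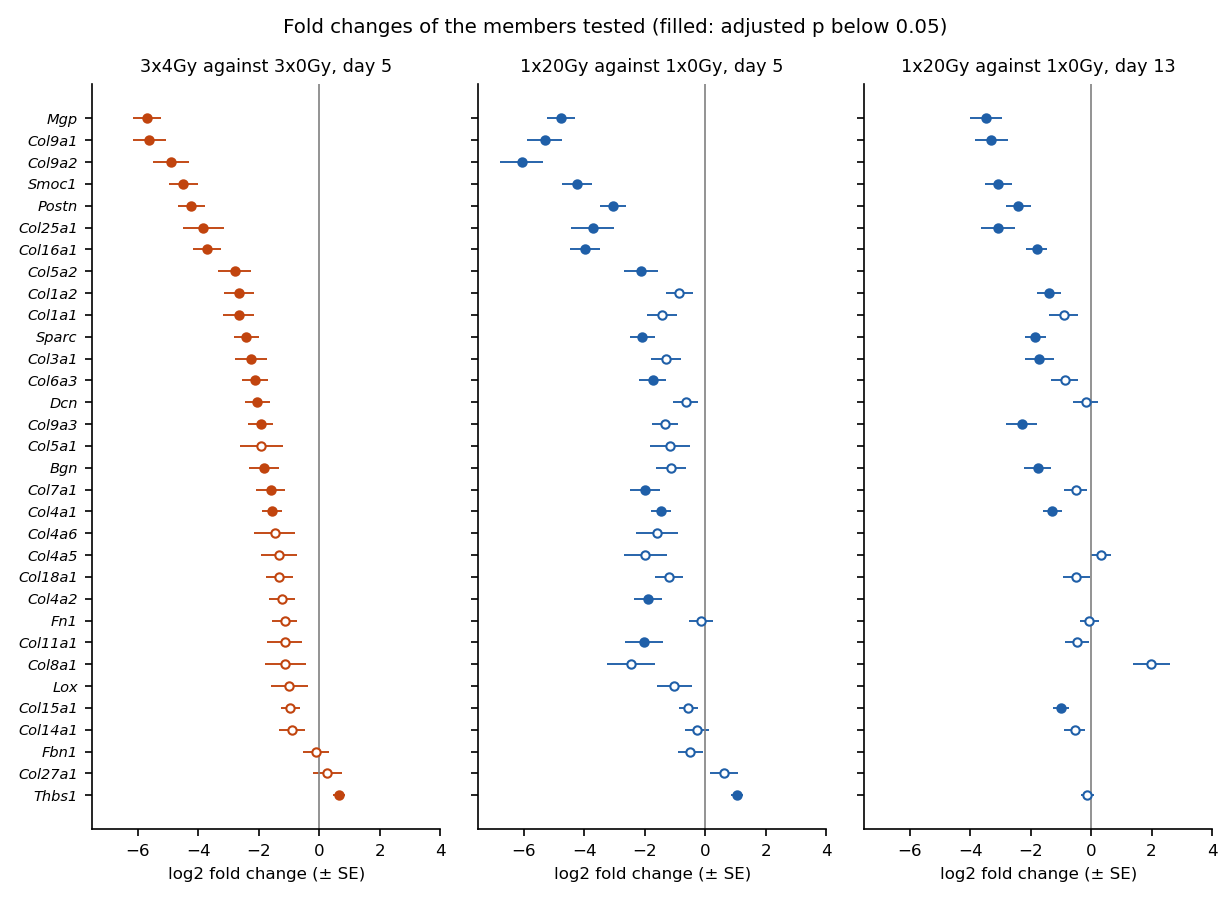
Log2 fold change of each tested member (x axis, points with SE bars) in the 3 contrasts against mock treatment, ordered by the 3x4Gy values, with filled points for adjusted p below 0.05. Mgp and Col9a1 lie at the low end in each panel, Thbs1 is the 1 filled point above 0 in each day 5 panel, and Col8a1 is at 1.99 at day 13.

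Per kilobase of exon, which allows levels of different genes to be compared, Mgp led the 23 members that reached a mean of 5 CPM in some group. In 3x0Gy it was at 207 ± 112 CPM per kilobase (SD, n = 4), followed by Sparc at 13.4 ± 5.42, Thbs1 at 11.8 ± 1.63, Fn1 at 7.91 ± 3.56 and Smoc1 at 7.81 ± 5.27. Col1a1 had the highest mean of the collagens, at 4.40 ± 0.600, with Col16a1 at 4.12 ± 2.82. The SDs of Sparc, Thbs1, Fn1 and Smoc1 overlap, as do those of Col1a1 and Col16a1, so the order within each set is not resolved. After 3x4Gy the order changed, with Thbs1 at 18.6 ± 4.65 CPM per kilobase ahead of Mgp at 4.05 ± 2.43 (n = 6). Among the collagens in that group Col15a1 was at 0.820 ± 0.424 and Col1a1 at 0.701 ± 0.536, values that overlap.

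RefSeq promoter sequences (GRCm38.p6) were found for 41 member genes, as 45 windows. Shown are the 250 bases before the start site, on the coding strand, of 3 collagens and Postn, chosen because they carry the main patterns described below and hold no annotated exon bases. Col3a1 fell after 3x4Gy and at day 13, Col9a1 and Postn fell in all 3 comparisons, and Col8a1 had responses to 1x20Gy of opposite sign on the 2 days, neither of them called. Capitals mark matches, on either strand, to the TATA box core TATAAA, to the CCAAT box, to the GC box GGGCGG, which reads CCGCCC from the other strand, and to the AP-1 site TGANTCA.
Col3a1, chr1:45311288-45311537, plus strand: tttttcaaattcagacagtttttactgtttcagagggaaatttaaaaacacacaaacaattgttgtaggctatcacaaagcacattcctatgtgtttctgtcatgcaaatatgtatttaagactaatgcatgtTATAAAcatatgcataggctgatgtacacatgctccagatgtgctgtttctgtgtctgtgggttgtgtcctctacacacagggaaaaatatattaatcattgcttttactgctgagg
Col9a1, chr1:24177360-24177609, plus strand: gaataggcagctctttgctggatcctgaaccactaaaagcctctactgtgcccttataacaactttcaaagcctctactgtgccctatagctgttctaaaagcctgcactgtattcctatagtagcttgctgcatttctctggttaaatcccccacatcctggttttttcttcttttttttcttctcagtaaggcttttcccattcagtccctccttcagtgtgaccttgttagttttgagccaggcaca
Postn, chr3:54360857-54361106, plus strand: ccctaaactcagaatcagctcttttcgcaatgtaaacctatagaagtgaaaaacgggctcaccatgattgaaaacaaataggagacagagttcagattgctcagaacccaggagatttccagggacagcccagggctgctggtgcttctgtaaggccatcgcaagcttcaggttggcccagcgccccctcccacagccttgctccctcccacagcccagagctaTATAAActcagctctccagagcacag
Col8a1, chr16:57754738-57754987, minus strand: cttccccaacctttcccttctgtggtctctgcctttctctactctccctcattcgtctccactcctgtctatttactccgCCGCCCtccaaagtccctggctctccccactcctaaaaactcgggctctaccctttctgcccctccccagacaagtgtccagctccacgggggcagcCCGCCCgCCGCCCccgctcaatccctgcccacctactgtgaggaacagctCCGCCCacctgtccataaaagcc

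The 4 windows differ in the motifs they hold. Col3a1 has TATAAA 117 bases before its start, Postn has it 26 bases before its start, Col9a1 has no match, and Col8a1 has GGGCGG at 4 places. Col9a1 has another annotated start, whose window (not shown, as it holds exon bases) has CCAAT 18 bases before that start. Over all 45 member windows, TATAAA was in 15.6%, CCAAT in 31.1%, GGGCGG in 53.3% and TGANTCA in 2.22%. Over all 32851 windows of the table these shares were 12.4%, 33.8%, 32.7% and 6.75%. A match is a description of these letters only.

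Among the fibrillar collagens, Col1a1, Col1a2 and Col3a1 encode the chains of types I and III, the bulk of most connective tissue. Col1a1 (chromosome 11, 94936224 to 94953042, plus strand) was at 31.6, 23.8, 32.3 and 27.7 CPM in the 3x0Gy libraries and at 1.31, 3.18 and 10.03 CPM (lowest, median, highest) in 3x4Gy. The groups did not overlap, and Col1a1 fell by 2.65 on the log2 scale (SE 0.51, adjusted p = 0.0016). At day 5 the 1x0Gy libraries were at 8.76, 10.8, 45.0 and 27.4 CPM and those of 1x20Gy at 2.10, 7.89 and 15.6 CPM. The low 1x0Gy libraries lay within the range of the irradiated ones, and the change of -1.43 (SE 0.49, adjusted p = 0.071) missed the threshold. At day 13 the change was -0.91 (SE 0.48, adjusted p = 0.28), from 12.5, 13.5, 9.06 and 6.31 CPM to 0.97, 4.27 and 16.5 CPM. The highest irradiated library at day 13, 1x20Gy library 2, was above every mock library, and without it the value was -1.58 (adjusted p = 0.013). The day 5 value after 1x20Gy also passed the threshold without 1x20Gy library 3 (-1.75, adjusted p = 0.039), 1x0Gy library 1 (-1.71, 0.037) or 1x0Gy library 2 (-1.66, 0.044), and with DESeq2, library size scaling or no count filter (adjusted p from 0.031 to 0.046).

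Col1a2 (chromosome 6, 4504814 to 4541544, plus strand), the partner chain of Col1a1, was at 25.9, 5.37, 26.6 and 14.6 CPM in 3x0Gy and at 1.76, 3.03 and 3.33 CPM in 3x4Gy, and it fell (log2 fold change -2.66, SE 0.49, adjusted p = 0.0011). After 1x20Gy it was at 1.58, 7.89 and 13.7 CPM against 6.90, 6.19, 26.1 and 20.5 CPM in the mock group, a change of -0.85 (SE 0.45, adjusted p = 0.27). At day 13 the values were 3.66, 7.83, 4.01 and 3.27 CPM in 1x0Gy and 0.300, 1.78 and 3.42 CPM in 1x20Gy, and Col1a2 fell by 1.39 on the log2 scale (SE 0.40, adjusted p = 0.042). The groups overlapped slightly there. The day 13 call held in only 2 of the 11 fits that left out 1 library (without 1x20Gy library 1 or 5), and the adjusted p reached 0.18 without 1x0Gy library 2, where the change was -1.03.

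Col3a1 (chromosome 1, 45311538 to 45349706, plus strand) was at 17.5, 6.71, 18.6 and 12.3 CPM in 3x0Gy and at 0.86, 2.33 and 7.27 CPM in 3x4Gy, with 1 library of each group overlapping. It fell by 2.25 (SE 0.52, adjusted p = 0.0065). At day 13 it fell by 1.72 (SE 0.48, adjusted p = 0.036), from 5.80, 9.45, 3.37 and 3.27 CPM to 0, 1.27 and 2.84 CPM, without overlap. At day 5 after 1x20Gy the change was -1.28 (SE 0.50, adjusted p = 0.12), and without 1x20Gy library 3, which at 10.5 CPM was the highest irradiated library, it was -1.75 (adjusted p = 0.038). The day 13 call ended without 1x20Gy library 2 or 3 or 1x0Gy library 1, 2 or 3 (adjusted p from 0.055 to 0.15). The 3x4Gy call ended with the epithelial covariate (-1.53, adjusted p = 0.095).

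Col5a2, a chain of type V collagen that starts fibril assembly, was at 7.40, 4.36, 4.70 and 3.58 CPM in 3x0Gy and at 0.218, 0.491 and 1.505 CPM in 3x4Gy. It fell by 2.80 (SE 0.55, adjusted p = 0.002) after 3x4Gy and by 2.12 (SE 0.55, adjusted p = 0.017) at day 5 after 1x20Gy. The second call ended without 1x0Gy library 3 (-1.44, adjusted p = 0.15), which at 7.06 CPM was the highest of its group, and with the epithelial covariate (-0.24, adjusted p = 0.91). Col11a1, a chain of the cartilage fibril collagen, was called after 1x20Gy at day 5 (-2.02, SE 0.62, adjusted p = 0.046), from 2.39, 3.91, 4.10 and 5.98 CPM to 0.504, 0.944 and 1.53 CPM. That call ended in 8 of 10 fits that left out 1 library, all but those without 1x20Gy library 3 or 1x0Gy library 1, with adjusted p up to 0.16, and with the epithelial covariate (-0.18, adjusted p = 0.94). Col5a1 and Col27a1, the other fibrillar chains tested, were not called, and Col2a1, Col5a3 and Col11a2 stayed at group means of at most 1.18 CPM.

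**Figure D3:**
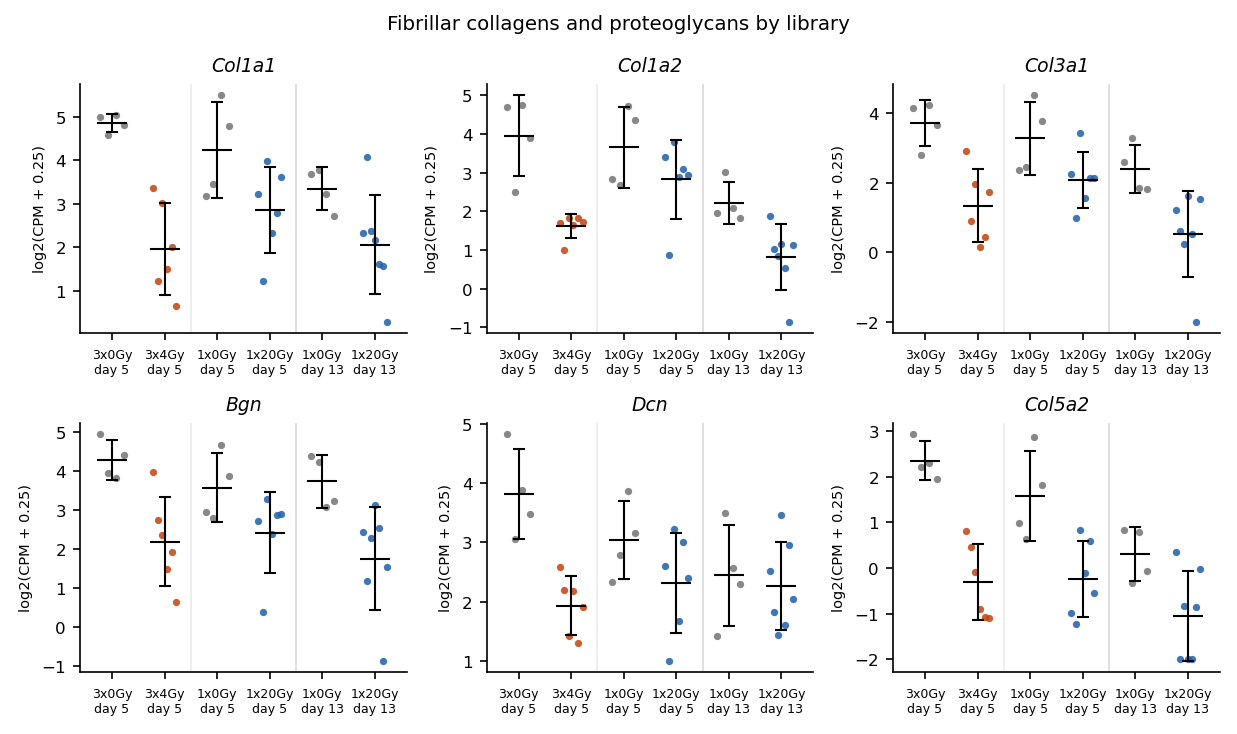
Level of Col1a1, Col1a2, Col3a1, Bgn, Dcn and Col5a2 in each library as log2(CPM + 0.25), with mean and SD as bars, in the 6 groups. The 3x4Gy libraries of Col1a1 and Col1a2 lie below all 3x0Gy libraries, while the 1x0Gy libraries at day 5 spread widely and overlap those of 1x20Gy for all genes shown.

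Of the collagens tested at day 5, the type IX chains Col9a1 and Col9a2 had the lowest log2 fold changes. Col9a1 (chromosome 1, 24177610 to 24252684, plus strand), best known from cartilage, was at 18.2, 6.37, 9.04 and 12.6 CPM in 3x0Gy and at 0, 0.143 and 0.752 CPM in 3x4Gy. It was at 5.71, 5.38, 11.7 and 9.06 CPM in 1x0Gy at day 5 against 0, 0.0875 and 0.435 CPM in 1x20Gy, and at day 13 at 6.41, 3.24, 8.43 and 4.91 CPM against 0, 0.342 and 1.60 CPM. No irradiated library overlapped its mock group, and 3 libraries of each irradiated group had 0 counts. The log2 fold changes were -5.61 (SE 0.56, adjusted p = 1.5e-06), -5.30 (SE 0.58, adjusted p = 8.9e-06) and -3.29 (SE 0.55, adjusted p = 0.0025), and each call held in every alternative fit.

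Col9a2 followed the same course at day 5. It was at 15.5, 3.69, 5.74 and 7.78 CPM in 3x0Gy and at 0, 0.198 and 0.752 CPM in 3x4Gy (log2 fold change -4.90, SE 0.60, adjusted p = 1.9e-05). In 1x0Gy it was at 6.37, 2.77, 9.36 and 7.07 CPM, and in 1x20Gy 5 of 6 libraries had 0 counts (log2 fold change -6.06, SE 0.71, adjusted p = 2.4e-05). That group held 2 counts against 161 in the mock group, a ratio per gene count of 97.4 with an exact 95% counting interval of 26.5 to 811. The interval pools the libraries of a group and leaves out the spread between them. At day 13 Col9a2 was below the filter on low counts and not tested, with 5.24 ± 2.90 CPM (SD, n = 4) in 1x0Gy and 0.458 ± 0.491 CPM (n = 7) in 1x20Gy, and it was called lower there without the filter and with another filter. Col9a3 fell after 3x4Gy (-1.94, SE 0.41, adjusted p = 0.0033) and at day 13 (-2.29, SE 0.51, adjusted p = 0.012), the latter not without 1x0Gy library 3 (-2.05, adjusted p = 0.069) and the former not with the epithelial covariate (-1.60, adjusted p = 0.058). After 1x20Gy at day 5 it was at -1.31 (SE 0.43, adjusted p = 0.061), and both other scalings and DESeq2 called it. A share of 6.07% of its exon bases lies in Tcfl5 on the other strand, and the counting's use of strand is not stated.

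Col16a1 (chromosome 4, 130047840 to 130099283, plus strand) had the second highest mean of the collagens in 3x0Gy, not resolved from Col1a1. It was at 55.5, 12.4, 19.7 and 23.7 CPM there and at 0.287, 1.65 and 4.01 CPM in 3x4Gy. It fell by 3.71 after 3x4Gy (SE 0.46, adjusted p = 2.3e-05), by 3.97 at day 5 after 1x20Gy (SE 0.50, adjusted p = 4.4e-05) and by 1.80 at day 13 (SE 0.36, adjusted p = 0.0065), with no overlap in any of them. At day 13 the 1x20Gy libraries were at 1.02, 2.84 and 6.51 CPM against 19.5, 11.6, 12.6 and 11.2 CPM. Its share of all collagen CPM went from 12.7% ± 4.89 (SD, n = 4) in 3x0Gy to 3.73% ± 2.51 (n = 6) in 3x4Gy. Col14a1, which regulates fibril width, was called in none of the 3 comparisons, with 8.59 ± 3.99 CPM in 3x0Gy and 4.45 ± 1.90 CPM in 3x4Gy (-0.91, SE 0.43, adjusted p = 0.17).

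The 1 transmembrane collagen tested, Col25a1 (chromosome 3, 130131501 to 130599877, plus strand), known from neurons, fell in all 3 comparisons. It was at 11.8, 1.34, 5.56 and 6.07 CPM in 3x0Gy and at 0, 0.509 and 0.695 CPM in 3x4Gy (-3.83, SE 0.67, adjusted p = 0.00064). The changes after 1x20Gy were -3.71 at day 5 (SE 0.71, adjusted p = 0.0021) and -3.08 at day 13 (SE 0.57, adjusted p = 0.004), again with no overlap. The day 5 call after 1x20Gy ended with the epithelial covariate (-2.30, adjusted p = 0.27).

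Col4a1 and Col4a2 encode the main basement membrane chains and lie head to head on chromosome 8 (11198423 to 11312826, minus strand, and 11312805 to 11449287, plus strand), sharing 22 exon bases. Col4a1 was at 8.08, 8.39, 6.96 and 9.96 CPM in 3x0Gy and at 1.72, 2.42 and 4.49 CPM in 3x4Gy. It fell by 1.56 after 3x4Gy (SE 0.33, adjusted p = 0.0035), by 1.45 at day 5 after 1x20Gy (SE 0.34, adjusted p = 0.0092) and by 1.28 at day 13 (SE 0.32, adjusted p = 0.02), and irradiated and mock libraries did not overlap. Col4a2 fell after 1x20Gy at day 5 (-1.89, SE 0.45, adjusted p = 0.01) and was at -1.22 after 3x4Gy (SE 0.44, adjusted p = 0.07). Col4a5 and Col4a6, the chains of another type IV network, were not called, and at day 13 Col4a5 was at 3.71 ± 0.403 CPM (SD, n = 4) in 1x0Gy and 4.58 ± 1.81 CPM (n = 7) in 1x20Gy. The day 5 call of Col4a1 after 1x20Gy ended without 1x0Gy library 4 (adjusted p = 0.056), its day 13 call without 1x0Gy library 1 or 3 (0.078 and 0.063), and the call of Col4a2 without 1x0Gy library 3 (0.069). With the epithelial covariate both day 5 calls of Col4a1 (adjusted p = 0.062 and 0.42) and that of Col4a2 (0.29) ended.

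Of the beaded filament collagens, Col6a3 fell after 3x4Gy, from 7.07, 8.39, 13.9 and 11.8 CPM to 0.437, 2.16 and 4.69 CPM (-2.12, SE 0.44, adjusted p = 0.003), and after 1x20Gy at day 5 (-1.73, SE 0.45, adjusted p = 0.017). The second call ended without 1x0Gy library 3 (-1.40, adjusted p = 0.099). Col6a1 and Col6a2, the other chains of that heterotrimer, were not tested and reached group means of at most 1.83 and 2.38 CPM. Col7a1, the anchoring fibril collagen below epithelia, fell after 3x4Gy (-1.61, SE 0.47, adjusted p = 0.027) and after 1x20Gy at day 5 (-1.98, SE 0.49, adjusted p = 0.014). Its first call ended without 3x4Gy library 6 (adjusted p = 0.057) or 3x0Gy library 1 (-1.16, 0.12) or 4 (0.077), and the second without 1x0Gy library 3 (0.073). With the epithelial covariate both calls of Col7a1 (-1.04, adjusted p = 0.25, and -1.08, 0.44) and the 1x20Gy call of Col6a3 (-0.59, 0.64) ended.

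The multiplexins Col15a1 and Col18a1, basement membrane collagens that are sources of angiogenesis-inhibiting fragments, had 1 call between them. Col15a1 was called at day 13 only, from 5.80, 5.13, 6.54 and 5.61 CPM to 1.42, 3.15 and 3.71 CPM (-0.996, SE 0.27, adjusted p = 0.029), and leaving out any 1 of the 4 mock libraries ended that call (adjusted p from 0.056 to 0.12). After 3x4Gy it was at -0.95 (SE 0.32, adjusted p = 0.052), a value that passed with DESeq2, limma voom, both other scalings and the epithelial covariate. Its share of collagen CPM was 5.52% ± 2.69 (SD, n = 4) in 3x0Gy and 12.1% ± 7.26 (n = 6) in 3x4Gy. After 3x4Gy Col18a1 was at -1.31 (SE 0.44, adjusted p = 0.052) and it was called in none of the 3 comparisons. Its 3x0Gy and 3x4Gy libraries did not overlap, and the value passed with DESeq2, limma voom, both other scalings and no count filter (adjusted p from 0.03 to 0.049).

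Matrix glycoproteins held the lowest log2 fold change of all tested members after 3x4Gy and at day 13, and the only called rise. Mgp (chromosome 6, 136872435 to 136875823, minus strand), matrix Gla protein, an inhibitor of calcification made by vascular and cartilage cells and by some mammary epithelium, was at 427, 134, 159 and 262 CPM in 3x0Gy and at 1.31, 4.03 and 9.46 CPM in 3x4Gy. At day 5 it was at 84.7, 52.6, 155 and 113 CPM in 1x0Gy and at 0.902, 3.16 and 7.12 CPM in 1x20Gy. At day 13 it was at 67.7, 63.7, 148 and 80.2 CPM in 1x0Gy and at 1.55, 7.03 and 32.0 CPM in 1x20Gy, where library 5 was the highest. No group overlapped its mock group, and Mgp fell with log2 fold changes of -5.70 (SE 0.46, adjusted p = 2.1e-07), -4.77 (SE 0.46, adjusted p = 1.7e-06) and -3.46 (SE 0.53, adjusted p = 0.0017). Each call held in every alternative fit.

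Smoc1 (chromosome 12, 81026808 to 81186414, plus strand), a secreted Sparc relative of basement membranes, was at 53.5, 18.5, 11.5 and 25.8 CPM in 3x0Gy and at 0.218, 1.27 and 1.76 CPM in 3x4Gy. Its changes were -4.49 (SE 0.49, adjusted p = 4.9e-06), -4.24 (SE 0.51, adjusted p = 2.8e-05) and -3.07 (SE 0.44, adjusted p = 0.001), with no overlap and no call ended in any fit. Postn (chromosome 3, 54361109 to 54391037, plus strand), periostin, a matricellular protein of wounds and tumour stroma, was at 29.3, 22.5, 19.1 and 23.8 CPM in 3x0Gy and at 0.218, 0.777 and 2.51 CPM in 3x4Gy. It fell by 4.22 (SE 0.44, adjusted p = 2.5e-06), 3.04 (SE 0.43, adjusted p = 0.00013) and 2.40 (SE 0.41, adjusted p = 0.0027). Sparc (chromosome 11, 55394500 to 55423183, minus strand), a collagen-binding protein that assists collagen deposition, was at 67.3, 21.5, 62.3 and 51.8 CPM in 3x0Gy and at 4.01, 8.67 and 19.8 CPM in 3x4Gy. It fell by 2.42 (SE 0.42, adjusted p = 0.00058), 2.08 (SE 0.41, adjusted p = 0.0027) and 1.84 (SE 0.35, adjusted p = 0.0047). With the epithelial covariate the day 5 calls after 1x20Gy ended for Postn (-1.49, adjusted p = 0.15) and Sparc (-1.21, adjusted p = 0.25).

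**Figure D4:**
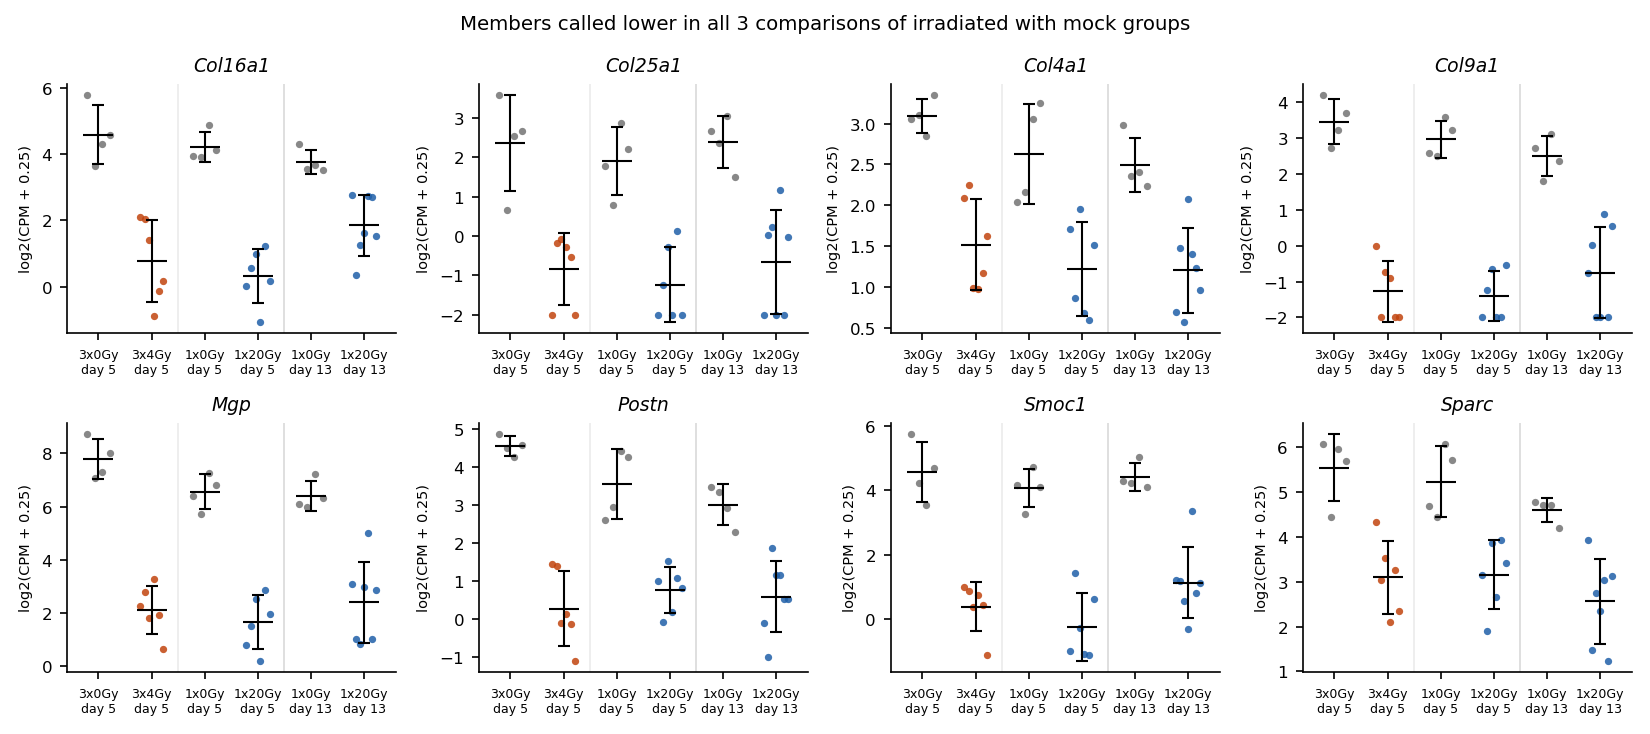
Level of the 8 members called lower in all 3 contrasts against mock treatment in each library, as log2(CPM + 0.25), with mean and SD as bars. For all 8 genes the irradiated libraries (coloured) lie below the mock libraries (grey) of the same schedule and day; points at the bottom of Col9a1 and Col25a1 are libraries with 0 counts.

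Thbs1 (chromosome 2, 118111876 to 118127133, plus strand), thrombospondin 1, an antiangiogenic glycoprotein that activates latent TGF-beta, rose at day 5. It was at 111, 87.7, 104 and 63.9 CPM in 1x0Gy and at 135, 173 and 265 CPM in 1x20Gy, without overlap (log2 fold change 1.04, SE 0.20, adjusted p = 0.0023). After 3x4Gy it was at 80.9, 109 and 151 CPM against 59.9, 70.5, 72.9 and 84.0 CPM, with 1 irradiated library inside the mock range, and the rise of 0.65 (SE 0.20, adjusted p = 0.039) was called. At day 13 the groups lay together, at 38.8, 39.4, 38.4 and 30.6 CPM in 1x0Gy and 21.6, 32.7 and 52.6 CPM in 1x20Gy (-0.12, SE 0.21, adjusted p = 0.78). The difference of the 1x20Gy responses between the days was -1.14 (SE 0.29, adjusted p = 0.069). The 3x4Gy call ended without 3x4Gy library 1, 5 or 6 or 3x0Gy library 1, 2 or 3 (adjusted p from 0.05 to 0.10), and with upper quartile or library size scaling (0.58, adjusted p = 0.066, and 0.56, adjusted p = 0.098) or the epithelial covariate (0.70, adjusted p = 0.082). The 1x20Gy call at day 5 held in every alternative fit.

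Fn1 (chromosome 1, 71585520 to 71653200, minus strand), fibronectin, which links cells to collagen and which macrophages also make, was called in none of the 3 comparisons. It was at 35.0, 129, 115 and 90.4 CPM in 3x0Gy and at 23.9, 38.0 and 83.6 CPM in 3x4Gy (-1.14, SE 0.42, adjusted p = 0.077). At day 5 it was at 77.3, 69.8, 318 and 122 CPM in 1x0Gy and at 89.3, 109 and 222 CPM in 1x20Gy (-0.14, SE 0.41), and at day 13 at 39.1 ± 13.3 CPM (SD, n = 4) in 1x0Gy and 36.8 ± 19.4 CPM (n = 7) in 1x20Gy (-0.06, SE 0.32). The 1x20Gy values turned to 0.59 at day 5 without 1x0Gy library 3 and to 0.17 at day 13 without 1x0Gy library 3. After 3x4Gy the change passed the threshold without 3x4Gy library 6 (-1.45, adjusted p = 0.029) or 3x0Gy library 1 (-1.40, adjusted p = 0.04), and with DESeq2, library size scaling or no count filter (adjusted p from 0.044 to 0.048). Fbn1, the microfibril protein fibrillin 1, was not called at day 5, and 20.1% of its exon bases lie in Gm9913 on the other strand. Thbs2 had 69 counts in all and was not tested.

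Col8a1 (chromosome 16, 57624258 to 57754737, minus strand), a short-chain collagen of vessel walls and basement membranes, had responses to 1x20Gy of opposite sign on the 2 days, and neither passed the threshold. At day 5 it was at 0.664, 0.652, 2.13 and 1.81 CPM in 1x0Gy and at 0, 0.183 and 0.504 CPM in 1x20Gy (-2.46, SE 0.80, adjusted p = 0.06). At day 13 it was at 1.83, 2.43, 1.48 and 0.701 CPM in 1x0Gy and at 0.970, 4.84 and 18.1 CPM in 1x20Gy (1.99, SE 0.60, adjusted p = 0.055). Of the 7 irradiated libraries at day 13, 6 were above every mock library, and the day 13 value was called with DESeq2, library size scaling, no count filter or the epithelial covariate (adjusted p from 0.0094 to 0.048). The difference of the 2 responses was 4.47 on the log2 scale (SE 1.05, adjusted p = 0.045 in the fit of all 31 libraries), and Col8a1 was the 1 member called of the 31 tested, against 0.423% of all 12061 genes. The call rests on few counts, with 6 in the 1x20Gy group at day 5, and it ended in 18 of 21 fits that left out 1 library (kept without 1x20Gy library 2, 5 or 7 of day 13) and with limma voom, upper quartile or library size scaling, a filter of 1 CPM that kept more genes or the epithelial covariate. Its relative Col8a2 was not tested. It had 40 counts in 3x0Gy and 1 in 3x4Gy, a ratio per gene count of 67.3 with an exact 95% counting interval of 11.4 to 2720. That interval pools the libraries of a group and leaves out the spread between them.

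**Figure D5:**
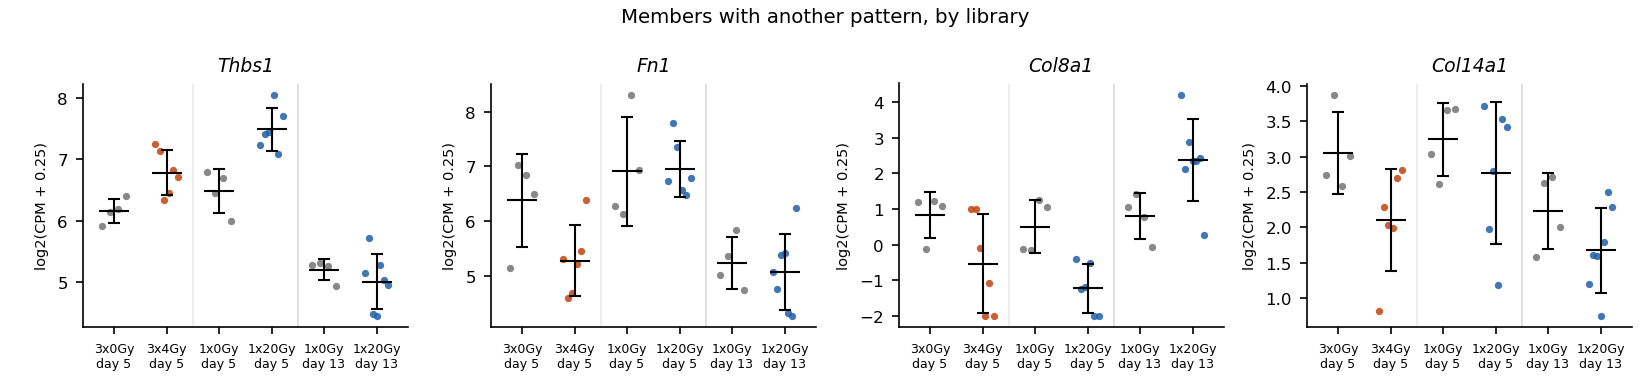
Level of Thbs1, Fn1, Col8a1 and Col14a1 in each library as log2(CPM + 0.25), with mean and SD as bars. Thbs1 in 1x20Gy at day 5 lies above all 1x0Gy libraries, Fn1 and Col14a1 overlap between irradiated and mock groups at each day, and Col8a1 in 1x20Gy reaches 18.1 CPM at day 13.

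Of the small proteoglycans, Bgn (biglycan, chromosome X, 73483602 to 73495933, plus strand) was at 30.6, 15.1, 13.9 and 20.9 CPM in 3x0Gy and at 1.31, 4.21 and 15.6 CPM in 3x4Gy, where library 1 lay within the mock range. It fell by 1.82 (SE 0.51, adjusted p = 0.021), and at day 13 by 1.76 (SE 0.44, adjusted p = 0.021). The first call was lost when 3x0Gy library 1 was left out (adjusted p = 0.073), the second when 1x0Gy library 1 or 2 of day 13 was (0.078 and 0.072), and the first also with the epithelial covariate (-1.01, adjusted p = 0.22). Dcn (decorin, chromosome 10, 97479609 to 97518143, plus strand) was at 28.3, 8.05, 14.6 and 10.9 CPM in 3x0Gy and at 2.22, 3.90 and 5.77 CPM in 3x4Gy, without overlap, and fell by 2.04 (SE 0.41, adjusted p = 0.0023, and -1.45 with adjusted p = 0.058 under the epithelial covariate). After 1x20Gy its changes were -0.64 at day 5 (SE 0.40, adjusted p = 0.36) and -0.18 at day 13 (SE 0.42, adjusted p = 0.84). Lum had 106 counts in all and was not tested.

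Lox, the crosslinking enzyme, was not called at day 5, with 1.93 ± 0.758 CPM in 3x0Gy (SD, n = 4) and 0.985 ± 0.615 CPM in 3x4Gy (n = 6), and was not tested at day 13. The 18 members with at least 10 counts that no fit tested had a highest group mean between 0.327 CPM (Col19a1) and 2.45 CPM (Col8a2).

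The genes that make and process collagen were followed as a separate list of 26. After 3x4Gy, 6 of 19 tested fell (7.09% of all genes) and 0 rose (5.20%), with a median of -0.58. Serpinh1, the collagen chaperone HSP47, went from 12.1 ± 3.68 to 0.699 ± 0.786 CPM (-3.89, SE 0.51, adjusted p = 3.4e-05), P4ha2, a prolyl hydroxylase subunit, from 7.26 ± 0.877 to 1.39 ± 0.675 CPM (-2.38, SE 0.39, adjusted p = 0.00034), and Plod2, a lysyl hydroxylase, by -1.46 (SE 0.30, adjusted p = 0.0028). At day 5 after 1x20Gy 4 of 19 fell (4.88% of all genes). They were led by P4ha2 (-2.36, SE 0.38, adjusted p = 0.00053), Serpinh1 (-2.23, SE 0.48, adjusted p = 0.005) and Plod2 (-1.27, SE 0.30, adjusted p = 0.01). These 3 calls ended with the epithelial covariate (adjusted p = 0.071, 0.76 and 0.14). At day 13, 1 of 16 fell (3.83% of all genes) and 1 rose (4.22%). These were Colgalt1 (-0.41, SE 0.10, adjusted p = 0.022) and Adamts14, a procollagen peptidase (2.36, SE 0.40, adjusted p = 0.0028). The Plod2 call after 1x20Gy ended without 1x0Gy library 1 (adjusted p = 0.059), and that of Colgalt1 without 1x0Gy library 1, 2 or 3 (0.06, 0.055 and 0.076).

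Other matrix genes, such as laminins and fibulins, were a list of 36. Of 18 tested at day 5, 8 fell (7.09% of all genes) and 1 rose (5.20%) after 3x4Gy, with a median of -1.31. After 1x20Gy, 6 fell (4.88%) and 1 rose (3.67%), with a median of -0.995. At day 13, 2 of 12 fell (3.83% of all genes): the laminin chains Lamb1 (-1.83, SE 0.31, adjusted p = 0.0028) and Lama4 (-2.20, SE 0.48, adjusted p = 0.011). The genes with the smallest p after 3x4Gy were Fbln2 (-2.73, SE 0.45, adjusted p = 0.00041), Agrn (-1.36, SE 0.27, adjusted p = 0.0018) and Lama4 (-2.54, SE 0.50, adjusted p = 0.0018). Of 8 collagen receptors tested at day 5, the 1 called was Ddr2, a receptor for fibrillar collagen found on mesenchymal cells. It fell after 3x4Gy (-3.62, SE 0.59, adjusted p = 0.00035) and after 1x20Gy at day 5 (-3.21, SE 0.59, adjusted p = 0.0015). A count of 1 in 8 is near the shares of all genes called, 12.3% and 8.55%. At day 13, 0 of 7 receptors were called. Ddr2 was not tested there, with means of 0.317 CPM in 1x20Gy and 2.62 CPM in 1x0Gy. Of 4 relatives of Lox tested at day 5, Loxl1 fell after 3x4Gy (-2.77, SE 0.84, adjusted p = 0.034), where 7.09% of all genes fell. That call ended without 3x4Gy library 1, 2, 4 or 5 or any 1 of the mock libraries (adjusted p from 0.052 to 0.065).

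Markers of other cells were called as follows. Of all genes, 12.3% were called after 3x4Gy, 8.55% after 1x20Gy at day 5 and 8.05% at day 13. After 3x4Gy, 4 of 7 tested fibroblast and mural cell markers fell: Twist1 (-3.12, SE 0.73), Rgs5 (-2.35, SE 0.59), Mcam (-1.46, SE 0.45) and Acta2 (-1.83, SE 0.59). After 1x20Gy at day 5, Rgs5 (-3.60, SE 0.65), Twist1 (-3.55, SE 0.78) and Mcam (-1.43, SE 0.44) fell. At day 13 the 3 tested were Thy1, Pi16 and Mcam, and none fell. Twist1, Rgs5, Acta2 and Notch3 were not tested there. Their day 13 means in 1x20Gy and 1x0Gy were 0.176 and 1.87 CPM for Twist1 and 1.395 and 3.497 CPM for Rgs5. Those of Acta2 were 0.283 and 0.808 CPM, while Notch3 was higher in 1x20Gy, at 4.18 against 1.236 CPM. Among epithelial markers 6 of 15 fell after 3x4Gy and 9 of 15 after 1x20Gy at day 5, with Krt14 at -2.51 (SE 0.46) and -3.03 (SE 0.48). At day 13, 2 of the 13 tested fell (Krt14, -1.53, SE 0.27, and Wfdc18, -1.85, SE 0.31) and 4 rose (Krt7, Krt19, Cldn3 and Cldn4, between 1.27 and 1.67). Of 6 endothelial markers tested at day 5, only Kdr was called, and it rose (0.86, SE 0.19, after 3x4Gy and 0.67, SE 0.19, after 1x20Gy). Of 3 tested at day 13, Vwf rose (1.51). Of 2 platelet markers tested, Pf4 fell after 3x4Gy (-2.05, SE 0.45), while Itga2b was at 0.38 (SE 0.45) and not called. Of 2 muscle markers tested at day 5, Mb fell in both comparisons. The other, Mylpf, was at 0.38 (SE 0.45) after 3x4Gy and 1.06 (SE 0.41) after 1x20Gy, not called. Of 11 leukocyte markers tested, Ptprc and Itgam rose after 3x4Gy, and at day 13 Lyz2 and Csf1r fell while Cd3e and S100a8 rose. Several of these calls did not hold in every fit that left out 1 library. Those of Mcam were near the threshold of edgeR's test, at adjusted p = 0.039 after 3x4Gy and 0.043 after 1x20Gy at day 5. They ended in 6 of 10 such fits after 3x4Gy and in 7 of 10 after 1x20Gy (adjusted p up to 0.13 and 0.15). Calls that also ended in some such fits were Kdr after 1x20Gy (up to 0.11), Ptprc (up to 0.099), Vwf (up to 0.096), Mb after 1x20Gy without 1x0Gy library 3 (0.064) and Csf1r without 1x0Gy library 3 (0.067). Pf4 was at -1.19 without 3x0Gy library 2 (adjusted p = 0.053). The part of these cells in the member results was not tested.

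With the mean of the epithelial markers as a covariate, 12 of the 19 member calls after 3x4Gy, 6 of 15 after 1x20Gy at day 5 and all 13 at day 13 were kept. Calls over all genes also became fewer at day 5 under this covariate, as given in the section on processing. Those kept after 1x20Gy at day 5 were Mgp, Smoc1, Col9a1, Col9a2, Col16a1 and Thbs1. At day 5 the covariate moved with irradiation, as the summed levels above show, so its part and that of the dose are separated only in so far as libraries of 1 group differ in it. At day 13 the covariate was at 4.47 to 4.88 in 1x0Gy and at 4.21 to 5.64 in 1x20Gy. It also averages markers that fell with markers that rose there. The fit thus had little group difference to remove, and the 13 kept calls do not test the part of epithelial cells. With the share of reads outside genes as the covariate, the calls that ended were Bgn and Thbs1 after 3x4Gy, Col4a1, Col4a2, Col5a2, Col6a3 and Col11a1 after 1x20Gy at day 5, and Col4a1, Col9a3 and Col15a1 at day 13.

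The 2 dose schedules were compared at day 5 directly. A test of whether the 3x4Gy response differed from the 1x20Gy response called 0 of 32 members with edgeR, 0 with DESeq2 and 0 with limma voom, where 0% of all genes were called, and 2 members had an unadjusted p below 0.05. The largest differences were -1.81 for Col1a2 (SE 0.68, adjusted p = 0.8) and -1.40 for Dcn (SE 0.58, adjusted p = 0.8), and Mgp differed by -0.93 (SE 0.65). With a median SE of 0.678 over the members, the data do not resolve differences of that size. In 3x4Gy against 1x20Gy directly, 0 members were called with edgeR and limma voom and 1 (Fn1) with DESeq2, 5 had an unadjusted p below 0.05, and 0.0250% of all genes were called (0.0166% higher and 0.00832% lower). Fn1 was lower in every 3x4Gy library than in every 1x20Gy library, at 23.9 to 83.6 against 89.3 to 222 CPM (-1.64, SE 0.39, adjusted p = 0.27).

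The mock groups of the 2 schedules did not differ by call, with 0 of 32 members (0% of all genes) by edgeR, DESeq2 and limma voom and 3 at an unadjusted p below 0.05. Still, 26 of the 32 tested members were higher in 3x0Gy, with a median of 0.37, and mean Mgp was 246 ± 133 CPM (SD, n = 4) in the first and 102 ± 43.7 CPM (n = 4) in the second (1.32, SE 0.42, adjusted p = 0.84). Each response above was taken against its own mock group.

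Members also varied among libraries of 1 group, and not all together. Deviations of log2 CPM from the group mean were averaged over Col1a1, Col1a2 and Col3a1 and set beside each other gene over the 31 libraries. These correlations are descriptions across libraries that share their depth and composition. Among members, Bgn (Pearson r 0.744) and Sparc (0.731) followed the 3 fibrillar chains most closely, then Col5a1 (0.650), Thbs2 (0.617) and Dcn (0.536). Mgp (0.194), Smoc1 (-0.05), Thbs1 (0.006) and Col15a1 (-0.242) did not. Among the 13401 other genes ranked, the closest were Serping1 (0.716), the C1 inhibitor, Fstl1 (0.680), a secreted Sparc relative, Arhgap29 (0.649), Sh3pxd2a (0.648), Acta2 (0.635), Fam213b (0.626), Ddr2 (0.609), Ctnnbip1 (0.608), Map3k12 (0.606) and Xpo5 (0.596). With the epithelial marker mean the order differed: Col16a1 was at 0.761, Col5a2 at 0.687 and Col18a1 at 0.683, while Col1a2 was at 0.104 and Col15a1 at -0.449. The 3 fibrillar chains and the epithelial mean had an r of 0.308.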

How the data were processed

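RNA from CD45.2+ cells sorted from irradiated or mock-treated AT3-OVA tumours was sequenced as 31 libraries, each deposited by the authors as a table of whole-number counts per gene symbol. Per the submitters' processing notes, bcl2fastq 2.20.0.422, cutadapt 1.5, HISAT2 2.0.4 and HTSeq 0.9.1 were used, with the builds GRCm38 and mm10. The annotation release and the strand setting are not given in the sources used here. The summary lines of each table (reads outside genes, ambiguous or unplaced) were left out of library sizes and tests. Reads outside genes were 5.65% to 32% of the sum of gene counts, those reads and ambiguous reads.

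From these deposited counts, CPM with TMM scaling and log2 fold changes were computed with edgeR 4.0.16 (R 4.3.3): filterByExpr (minimum count 10, total 15), then the quasi-likelihood test with Benjamini-Hochberg adjustment over all genes tested and a threshold of 0.05. The fits used the 20 libraries of day 5 in 4 groups, the 11 of day 13, or all 31 for the difference between days. The SE is the absolute log2 fold change divided by the square root of the F statistic. Figures plot log2(CPM + 0.25). Alternatives were DESeq2 1.42.0, limma 3.58.1 voom, other scalings and filters, covariates, the title number as a block and leaving out each library. The scripts were tested on simulated data. Gene positions and exon lengths came from GENCODE M21 (GRCm38), and promoter sequences from RefSeq (GRCm38.p6).

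The members and gene lists were chosen with earlier results of these data known. Members with a mean of at least 5 CPM in a group were given with all values, and others by range or where called. Genes of other lists were named where among the 3 smallest p per list, and genes named beyond that were chosen after their values were seen. The 10 genes most like Col1a1, Col1a2 and Col3a1 were ranked by Pearson r among those with at least 1 CPM in a group. Gene counts of 2641229 to 7541144 per library set the precision, and counting intervals cover counting error only.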

Additional observations from a re-analysis of the deposited data

Results flagged for a closer look

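In groups of 4, 6 or 7 libraries, 19 of 144 groups of values examined had 1 library far from the others. The rule took the gap to the nearest library over the range of the group. It flags about 1 in 20 by chance only if values are normally distributed, which was not checked for CPM. Col9a2 in 1x20Gy at day 5, with 0 counts in 5 of 6 libraries, is flagged whatever the level of the other. The 19 are above that share of 144, but without a checked reference they cannot show whether outlying libraries are in excess. Among the 1x20Gy libraries of day 13, library 2 had 16.5 CPM of Col1a1 (nearest other 4.94), library 1 had 18.1 CPM of Col8a1 (7.11) and 70.5 CPM summed over all collagens (58.4), library 5 had 32.0 CPM of Mgp (8.22) and 10.002 CPM of Smoc1 (2.05), and library 7 had 11.2 CPM of Col11a1 (4.40) and 75.2 CPM of Fn1 (42.4). Among the 1x20Gy libraries of day 5, library 3 was the highest for Col3a1 at 10.5 CPM (4.54), Col6a3 at 5.34 CPM (2.39) and Col9a2 at 0.381 CPM (0). In 3x4Gy, library 6 had 83.6 CPM of Fn1 (43.3), library 1 had 15.6 CPM of Bgn (6.41) and library 2 had 1.76 CPM of Col1a2, below the others (2.87). Among mock libraries, Col8a1 was at 0.671 CPM in 3x0Gy library 2 (1.87) and Col16a1 at 29.2 CPM in 1x0Gy library 3 of day 5 (17.2). In 1x0Gy at day 13, Col1a2 was at 7.83 CPM in library 2 (4.01), Smoc1 at 32.5 CPM in library 3 (19.2), and library 4 was the lowest for Sparc at 18.0 CPM (25.9) and Thbs1 at 30.6 CPM (38.4).

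The response of Col8a1 to 1x20Gy differed between day 13 and day 5 by 4.47 on the log2 scale in a test of the difference itself (edgeR's quasi-likelihood test, adjusted p = 0.045). Day and experiment code cannot be told apart.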

How the results depend on the processing

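The counts of members that fell stayed within 1.5 times their value under DESeq2, limma voom, both other scalings and both other filters, and the cause of the exceptions below was not tested. With the epithelial covariate, 5 members fell after 1x20Gy at day 5, and with the share of reads outside genes 9 did. Thbs1 was no longer called after 3x4Gy, leaving 0 members higher, with upper quartile or library size scaling, either covariate, the block, or only the compared groups in the fit. At day 13, Col8a1 made 1 member higher with DESeq2, library size scaling, no filter, the block or the epithelial covariate. In 3x4Gy against 1x20Gy DESeq2 called 1 member. The difference between days gave 2 members with DESeq2 and 0 with limma voom, upper quartile or library size scaling, the 1 CPM filter or the epithelial covariate. Leaving out 1 library gave 17 to 20 lower and 0 to 1 higher members after 3x4Gy, 9 to 17 lower after 1x20Gy at day 5 (9 without 1x0Gy library 3), 8 to 13 lower (8 without 1x0Gy library 1 or 3) and 0 to 1 higher at day 13, and 0 to 2 for the difference between days.

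Over all genes, the epithelial covariate left 618 calls after 3x4Gy, against 1477 in the main fit. After 1x20Gy at day 5 it left 198, against 1028. The share of reads outside genes left 667 after 3x4Gy. The difference between days gave 228 calls with DESeq2, 3 with limma voom, 5 with upper quartile scaling, 16 with the block and 8 with the epithelial covariate. Library size scaling moved the median of all genes by -0.10, -0.11 and -0.23 in the 3 comparisons. Values that changed sign, none of them called, were those of Fn1 after 1x20Gy at day 5 (0.080 with limma voom, 0.27 with the share of reads outside genes, and -0.37 to 0.59 when 1 library was left out, above 0 only without 1x0Gy library 3) and at day 13 (-0.34 to 0.17, above 0 without 1x20Gy library 2, 5 or 6 or 1x0Gy library 3). The others were Col18a1 (0.27), Dcn (0.23) and Bgn (0.31) at day 5 with the epithelial covariate, Col14a1 at day 5 (0.044) and Dcn at day 13 (0.14) with the share of reads outside genes, and Dcn at day 13 when 1 library was left out (-0.47 to 0.28, above 0 only without 1x0Gy library 2).

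No label says that the title numbers pair libraries. Deviations of libraries sharing a number correlated between -0.255 and 0.401. Libraries of unlike number were not set beside them, so these values cannot show whether the numbers pair libraries. With the number as a replicate block, 18 members fell and 0 rose after 3x4Gy, 11 fell and 1 rose after 1x20Gy at day 5, 11 fell and 1 rose at day 13, and 1 was called for the difference between days. Members near 1 CPM rest on a few counts per library, which limits what can be said of the 18 members not tested.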
